A study of Mus musculus with 8 samples.

Results

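Germ cells of the testis develop inside seminiferous tubules among Sertoli cells, which nurse them, and the tubules are wrapped by contractile peritubular myoid cells. Leydig cells lie between the tubules and make testosterone from cholesterol. A fraction of germ cells purified from a dissociated testis can carry RNA and chromatin of these neighbours, and genes used as markers of them show how much of their signal a fraction holds. The genes described here are 10 such markers, chosen by name: *Sox9*, *Wt1*, *Gata4*, *Clu* and *Amh* for Sertoli cells, *Cyp17a1*, *Star* and *Insl3* for Leydig cells, and *Acta2* and *Vim* for peritubular and other mesenchymal cells. All 10 had a row in the RNA-seq tables, among 23343 genes. In bulk RNA, transcripts of a marker that came from somatic cells cannot be told apart from transcripts made by the germ cells, and fewer cells of a type cannot be told apart from less RNA per cell.

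The study compared pachytene spermatocytes (PS), which are in meiotic prophase, with round spermatids (RS), the haploid cells that follow, from testes of adult C57BL/6 mice. H3K27ac, the acetylated form of lysine 27 of histone H3 that marks active promoters and enhancers, was profiled by ChIP-seq in wild type PS and RS. RNA-seq was made from PS and RS of mice that lack both *Rnf8* and *Scml2* (Rnf8- and Scml2-dKO in the labels, here dKO), a ubiquitin ligase and a germline Polycomb protein. Each stage had 2 samples in each assay, 8 in all. The cells were separated by sedimentation in BSA at unit gravity. For the dKO this was done on a small scale that allowed both stages to be taken from 1 male. The paper judged the purity of each fraction by nuclear staining and reports that the large majority of cells were of the intended type. No RNA of wild type cells and no H3K27ac of dKO cells was analysed here, so genotype and assay cannot be told apart wherever the RNA is set beside the acetylation.

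The RNA libraries held 9655405 to 12289694 reads on genes, and 3 reads, the limit that a count of 0 allows, were worth 0.244 to 0.311 CPM (counts scaled to the total of the library). This limit covers counting error only. Over all genes tested, 30.4% were called higher in RS and 27.6% lower. Spermatid genes stood 20.3-fold higher in RS by summed CPM. All 7 of them were called higher, among them *Prm1* and *Prm2*, the protamines that pack sperm DNA. Of 7 spermatocyte genes, 4 were called lower, among them *Sycp3* and *Sycp2* of the synaptonemal complex and *Spo11*, which makes the meiotic breaks, 1 was called higher (*Dmc1*) and 2 were not called. *Rnf8* had 93 and 110 reads in PS and 61 and 50 in RS, and *Scml2* had 40 and 92 reads in PS and 44 and 98 in RS. Reads of both targeted genes thus remained, and whether they lay in the deleted part could not be seen in counts per gene. The peak lists held 41095 and 49434 intervals in PS and 74919 and 45863 in RS.

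Among the markers with enough reads for a test, the 3 Leydig markers differed most between the stages. *Insl3*, which encodes the hormone of testis descent made by Leydig cells, was the most abundant of the 10 per transcript length in every library. It stood at 593 and 450.0 RPKM in the PS replicates and at 60.0 and 35.8 RPKM in the RS replicates. Among all genes it ranked 41 and 70 by RPKM in PS and 1637 and 2434 in RS. Its 3966 and 2932 reads made up 0.0397% and 0.0304% of all reads in the PS libraries, and 0.004% and 0.00241% in the RS libraries. The PS and RS values did not overlap, and *Insl3* was 10.5-fold lower in RS (log2 fold change -3.39 ± 0.25 SE, edgeR adjusted p = 9.99e-06).

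*Cyp17a1*, the 17α-hydroxylase and lyase on the way to androgens, had 75.3 and 53.0 RPKM in PS and 4.27 and 3.0 RPKM in RS. It was 17.0-fold lower in RS (log2 fold change -4.08 ± 0.24 SE, edgeR adjusted p = 4.48e-06). *Star*, which brings cholesterol into the mitochondrion for steroid synthesis, had 14.7 and 10.4 RPKM in PS and 1.53 and 1.38 RPKM in RS. It was 8.34-fold lower in RS (log2 fold change -3.06 ± 0.22 SE, edgeR adjusted p = 8.97e-06). Both genes were thus separated between the stages like *Insl3*. Only 131 of 14647 genes tested (0.894%) were called lower in RS with a change as large as that of *Star* or larger.

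Reads of the Leydig markers also kept different proportions in the 2 stages. *Insl3* had 2.51 and 2.71 reads for each *Cyp17a1* read in PS, and 4.47 and 3.80 in RS. *Cyp17a1* had 2.35 and 2.34 reads for each *Star* read in PS, and 1.28 and 1.00 in RS. The replicates of a stage lay closer to each other than to the other stage for both ratios. The ratio of *Insl3* to *Star* reads was 5.90 and 6.33 in PS and 5.72 and 3.80 in RS, where the RS values lay below both PS values and apart from each other. These ratios were not tested.

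*Insl3* lies wholly inside *Jak3*, on the same strand and with the same annotated end, at chr8:71689252-71690577 (mm10). Reads there could be split between both genes. *Jak3*, a kinase of cytokine receptors, had 3.54 and 5.34 RPKM in PS and 3.55 and 5.86 RPKM in RS. Its log2 fold change was 0.12 ± 0.29 (SE), with an edgeR adjusted p of 0.741, so no fall like that of *Insl3* was seen for the gene around it.

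**Figure D1:**
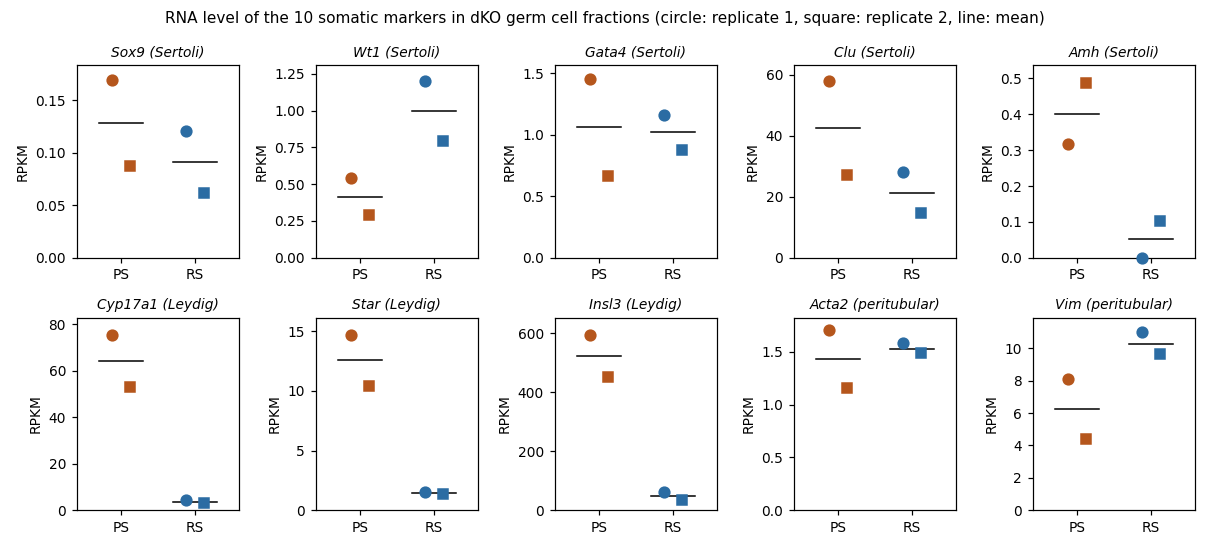
RNA level (RPKM, linear axes from 0) of each of the 10 markers in the 2 dKO PS and 2 dKO RS libraries, with circles for replicate 1, squares for replicate 2 and a line at the mean of each stage. *Cyp17a1*, *Star* and *Insl3* lie far lower in both RS libraries than in both PS libraries, *Wt1* and *Vim* lie higher in RS, and the values of *Sox9*, *Gata4*, *Clu* and *Acta2* overlap.

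The Sertoli markers did not move as one group. *Wt1*, a transcription factor that maintains Sertoli cell identity, had 0.539 and 0.291 RPKM in PS and 1.2 and 0.796 RPKM in RS, from 10 to 52 reads. It was called higher in RS, 2.48-fold (log2 fold change 1.31 ± 0.42 SE, edgeR adjusted p = 0.0236). The call was lost without PS replicate 2 (adjusted p = 0.0556) and without RS replicate 1 (adjusted p = 0.197), and with DESeq2 (adjusted p = 0.0832). *Gata4*, a zinc finger factor of Sertoli and Leydig cells, had 1.45 and 0.663 RPKM in PS and 1.16 and 0.876 RPKM in RS. Both RS values lay between the PS values, and its fold was 1.00 (SE 0.39 on the log2 scale, edgeR adjusted p = 0.996).

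*Clu*, a secreted chaperone that Sertoli cells make in large amounts and that many other cells also express, was the most abundant of the Sertoli markers. It had 57.9 and 27 RPKM in PS and 28.1 and 14.5 RPKM in RS. Replicate 1 was about as far above replicate 2 (2.13-fold in PS and 1.93-fold in RS, by CPM) as PS was above RS (1.92-fold), and PS replicate 2 fell just under RS replicate 1. *Clu* was not called (log2 fold change -0.94 ± 0.37 SE, edgeR adjusted p = 0.0531). It was called lower in RS without PS replicate 2 (adjusted p = 0.000392) and without RS replicate 1 (adjusted p = 0.00661).

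*Sox9*, the factor that starts Sertoli cell differentiation, and *Amh*, the hormone that fetal and young Sertoli cells secrete to remove the Müllerian duct, had too few reads for the fit. *Sox9* had 8 and 4 reads in PS and 7 and 3 in RS. Its ratio of RS to PS was 0.726, with a 95% interval of 0.281 to 1.83 from counting error only, so a difference was not detectable at this depth. *Amh* had 6 and 9 reads in PS and 0 and 2 in RS, and its ratio was 0.116 with an interval of 0.0129 to 0.50. The values of *Amh* did not overlap between the stages. Of the 5 Sertoli markers, all but *Amh* had more CPM in PS replicate 1 than in PS replicate 2, by 1.84- to 2.17-fold, and the same genes had more in RS replicate 1 than in RS replicate 2, by 1.31- to 1.95-fold.

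*Acta2*, the smooth muscle actin of myoid cells and of vessel walls, had RS values that lay between its PS values. It had 1.71 and 1.16 RPKM in PS and 1.58 and 1.49 RPKM in RS (log2 fold change 0.15 ± 0.30 SE, edgeR adjusted p = 0.69). *Vim*, the intermediate filament of mesenchymal cells that Sertoli cells also express, had 8.13 and 4.42 RPKM in PS and 11 and 9.63 RPKM in RS. It was called higher in RS, 1.70-fold (log2 fold change 0.76 ± 0.27 SE, edgeR adjusted p = 0.0355). The call was lost without PS replicate 2 (adjusted p = 0.101) and without RS replicate 1 (adjusted p = 0.0969).

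In all, 8 of the 10 markers had the 10 reads in 2 libraries that the test asked for. Of these 2 were called higher in RS, 3 lower and 3 were not called, where called means an adjusted p under 0.05 and at least 1.5-fold. Over all genes tested, 58.0% were called in either direction, 30.4% higher in RS and 27.6% lower. The markers were therefore called about as often as other genes, and what set the Leydig markers apart was the size of the difference. The median log2 fold change of the 8 was -0.47, beside 0.009 over all genes tested. Without overlap between the stages, 4 of the 10 were lower in RS and 2 higher, beside 35.2% and 38.6% of the genes with reads.

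Summed over the 10 markers, PS held 773 and 538 CPM and RS held 151 and 98.2 CPM. The mean was 655 ± 166 CPM in PS and 124 ± 37.2 CPM in RS (SD, n = 2), 5.26-fold apart. No test was made, since the smallest two-sided p of an exact permutation of 2 against 2 samples is 0.33. Leydig markers supplied 80.5% and 86.2% of the marker reads in PS, but 37.1% and 37.4% in RS. Their own sum was 543 ± 112 CPM in PS and 46.4 ± 13.6 CPM in RS, 11.7-fold apart. The 5 Sertoli markers summed to 94.8 ± 47.6 CPM in PS and 52.0 ± 21.5 CPM in RS, mostly *Clu*, and the range of their libraries overlapped. *Acta2* and *Vim* together had 17.4 ± 6.57 CPM in PS and 26.1 ± 2.06 CPM in RS. The log2 ratio of RS to PS of the whole sum, -2.40, became -1.72 without *Insl3* and -0.52 without the 3 Leydig markers, alternatives chosen after the data were seen.

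Wider lists of genes known from the same cell types were read in the same RNA libraries. They were chosen with earlier results of these data known, so they are not an independent check. Of 9 further Leydig genes, all tested, 8 were called lower in RS and 1 higher, with a median log2 fold change of -3.12. Over all genes tested, 27.6% were called lower and 30.4% higher. *Hsd17b3* and *Hsd3b1*, dehydrogenases of androgen synthesis, had log2 fold changes of -4.36 ± 0.52 and -4.19 ± 0.28 (SE). *Cyp11a1*, which cuts the side chain of cholesterol, had -3.95 ± 0.22. *Hsd3b1* and its close paralog *Hsd3b6* share sequence, so their split of reads is uncertain. The exception was *Scarb1*, a lipoprotein receptor that many cells carry, at 18 and 17.3 RPKM in PS and 47.9 and 38.7 RPKM in RS. *Fdx1*, the ferredoxin that feeds electrons to mitochondrial P450 enzymes, stood at 44.2 and 43.2 RPKM in PS and 28.3 and 25.0 RPKM in RS, the smallest of the 8 decreases (log2 fold change -0.67 ± 0.16 SE). *Lhcgr*, the receptor of luteinizing hormone, reached 10 reads in PS alone, and of the 8 others 7 were called lower. The count of Leydig genes called lower was 7 or 8 whichever library was left out.

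Of 16 further Sertoli genes, 12 were tested, 6 were called higher in RS, none lower, and 6 were not called. Over all genes tested, 58.0% were called in either direction, 30.4% higher in RS and 27.6% lower. *Rhox5* and *Gata1* reached 10 reads in 2 libraries through RS alone, and of the 10 others 5 were called higher. By DESeq2 none was called lower either, and 4 were called higher. At an unadjusted edgeR p under 0.05, 1 gene (*Inhbb*) was lower in RS. The median log2 fold change was 0.83. *Trf*, the iron carrier transferrin, had 1.13 and 0.386 RPKM in PS and 4.54 and 3.57 RPKM in RS, and *Rhox5*, an X-linked homeobox gene, had 0.439 and 0.113 RPKM in PS and 0.893 and 1.59 RPKM in RS. *Cst12* and *Cst9*, both cystatins, were also called higher, and *Cst9* had 4.48 and 2.89 RPKM in PS and 10.3 and 9.41 RPKM in RS. *Ctsl*, the protease cathepsin L, had 19.7 and 9.32 RPKM in PS and 16.3 and 16.8 RPKM in RS and was not called. *Fshr*, the receptor of follicle stimulating hormone and among the most specific of these genes, was at 0 in PS replicate 2 and in RS replicate 2 and at 0.149 and 0.0606 RPKM in the others. The count called higher depended on the libraries. It was 10 of 12 tested without PS replicate 1, 4 of 12 without PS replicate 2, 3 of 10 without RS replicate 1 and 4 of 10 without RS replicate 2.

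Of 8 further peritubular genes, 4 were called higher in RS, none lower and 4 were not called. Over all genes tested, 30.4% were called higher and 27.6% lower. By DESeq2 none was called lower and 3 were called higher. At an unadjusted edgeR p under 0.05, 0 genes were lower in RS. The list's sum was 37.3 ± 5.35 CPM in PS and 261 ± 2.34 CPM in RS, and the rise came mostly from *Actg2*, the enteric smooth muscle actin, with 17.4 and 27.7 CPM in PS and 239 and 238 CPM in RS. *Actg2* had 11.6 and 18.3 RPKM in PS and 160.0 and 158 RPKM in RS. Its coding sequence is close to that of *Acta2*, whose level did not follow it. Whether the *Actg2* RNA came from peritubular cells or from the germ cells themselves was not tested. *Cnn1* and *Lmod1*, of smooth muscle, reached 10 reads in RS alone and could be tested only because they were higher there. Of the 6 other genes 2 were called higher, *Actg2* and *Myl9*, a myosin light chain. That share is close to the 30.4% called higher over all genes tested. *Tagln*, *Des*, *Tpm2* and *Myh11*, all of the contractile apparatus, were not called and had at most 3.03 RPKM in any library. The count called higher was 1 without RS replicate 1 and 2 without RS replicate 2, of 6 tested, and 4 or 5 of 8 without a PS replicate.

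**Figure D2:**
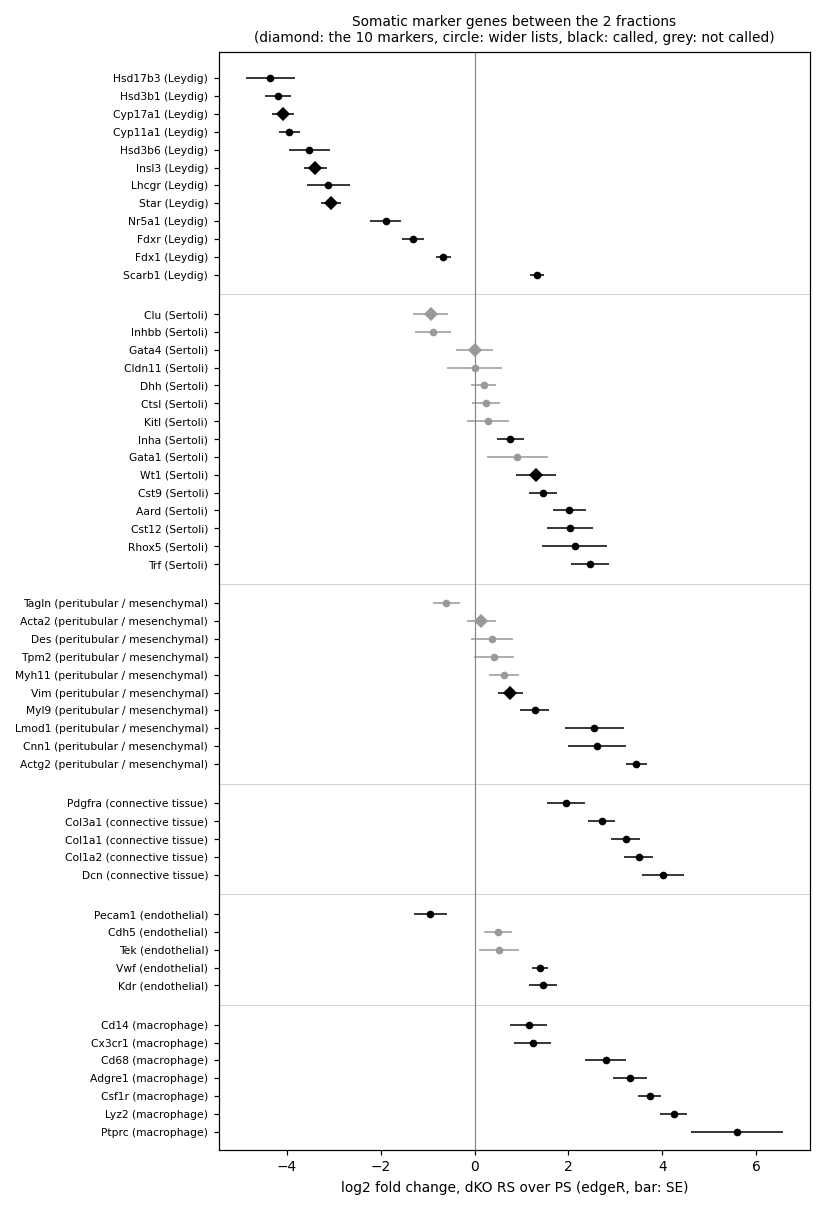
Log2 fold change of dKO RS over PS (edgeR, bars are SE) for the 8 markers with enough reads for a test (diamonds) and the tested genes of the wider somatic lists (circles), black where called and grey where not. The Leydig genes other than *Scarb1* lie left of 0, Sertoli, peritubular and endothelial genes lie on both sides with more to the right, and connective tissue and macrophage genes all lie to the right.

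Connective tissue and macrophage genes were higher in RS, the other direction than the Leydig markers. Over all genes tested, 30.4% were called higher in RS. All 5 tested connective tissue genes of 6 were called higher in RS, with a median log2 fold change of 3.22 and sums of 17.4 ± 8.23 CPM in PS and 156 ± 40.6 CPM in RS. *Dcn*, the matrix proteoglycan decorin, had 3.21 and 0.885 RPKM in PS and 37.4 and 25.4 RPKM in RS, and the collagens *Col1a2* and *Col1a1* had log2 fold changes of 3.50 and 3.22. All 7 macrophage genes were called higher in RS, with a median log2 fold change of 3.30 and sums of 10.3 ± 1.54 CPM in PS and 86.5 ± 8.78 CPM in RS. *Lyz2*, lysozyme of myeloid cells, had 1.99 and 1.02 RPKM in PS and 30.2 and 25.7 RPKM in RS. *Csf1r*, the receptor for the growth factor of macrophages, had 0.543 and 0.418 RPKM in PS and 6.68 and 5.81 RPKM in RS. *Ptprc*, which defines white blood cells as CD45, was at 0.0335 and 0 RPKM in PS and 0.724 and 0.278 RPKM in RS. *Ptprc*, *Adgre1* and *Cd68* reached 10 reads in RS alone, so their passing the filter already required them to be higher there, and the 4 others were called as well. The macrophage count was 2 of 4 tested without RS replicate 1, 3 of 4 without RS replicate 2, 5 of 7 without PS replicate 1 and 7 of 7 without PS replicate 2, and the connective tissue count was 5 in each. Their part in the values of *Vim* and *Wt1*, which were also higher in RS, was not tested.

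Of 6 endothelial genes, 5 were tested, 2 were called higher in RS (*Vwf* and *Kdr*), 1 lower (*Pecam1*) and 2 were not called, among them *Cdh5*, the cadherin of vessel walls. *Pecam1* was not called by DESeq2, nor by edgeR without PS replicate 1 or without either RS replicate. The 5 erythroid genes were not tested, since 4 globin rows were at 0 in every library and *Alas2* had at most 0.369 RPKM. Globin genes occur as near-identical copies and only unique alignments were counted, so a 0 there does not show that globin RNA was missing. Of 8 genes of spermatogonia, 4 were called higher in RS, 1 lower and 3 were not called. Their sums were 123 ± 31.9 CPM in PS and 125 ± 7.09 CPM in RS. Of all genes tested, 58.0% were called, 30.4% higher in RS and 27.6% lower. The endothelial and spermatogonia lists were called about as often. Among the spermatogonia genes, *Gfra1*, a receptor subunit of stem cells, and *Sall4*, a zinc finger factor, were called higher. *Uchl1*, the most abundant of them, was not called. The spermatogonia gene called lower was *Id4*, an inhibitor of differentiation, at 26.1 and 20.4 RPKM in PS and 2.73 and 2.53 RPKM in RS.

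**Figure D3:**
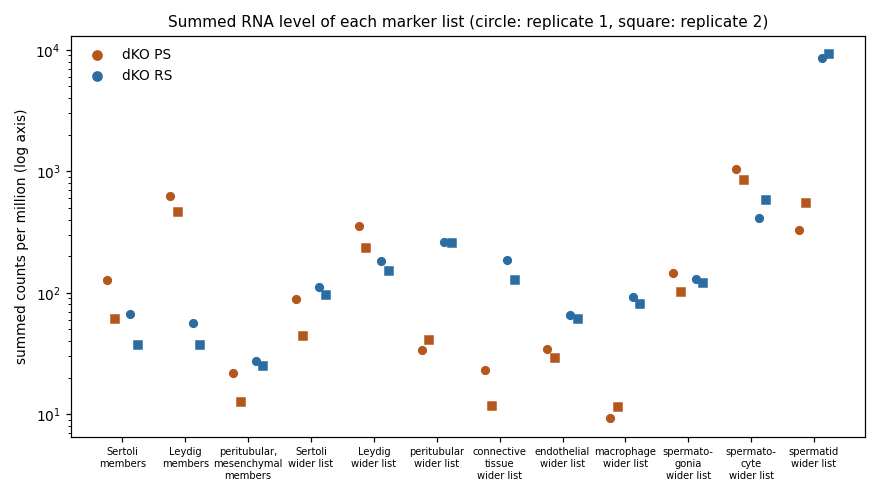
Summed RNA level (CPM, log axis) of each list of marker genes in the 2 dKO PS libraries (brown) and the 2 dKO RS libraries (blue). The 3 Leydig members fall from 543 to 46.4 CPM on average between PS and RS, whereas the macrophage list rises from 10.3 to 86.5 CPM and the spermatid list from 437 to 8870 CPM.

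The chromatin of wild type cells gave a different order of the markers than the RNA of dKO cells. An interval of H3K27ac within 2 kb of a start was called in both PS replicates at 7 of the 10 markers and in both RS replicates at 2, *Amh* and *Vim*. Over all genes, 55.5% had one in both PS replicates and 50.8% in both RS replicates. Fold enrichment in these lists is the number of fragments at the summit, plus 1, over a single background value per library plus 1. It carries no comparison with input DNA, and a gene without an interval may have acetylation under the threshold of the caller. The lowest fold enrichment listed was 2.85 to 3.48.

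All 5 Sertoli markers had intervals in both PS libraries. At *Sox9* the strongest near the start had a fold enrichment of 5.35 and 7.67 in the PS replicates, at *Wt1* 4.53 and 7.13, at *Gata4* 4.94 and 6.03, and at *Clu* 5.35 and 9.87. None of these 4 had an interval near the start in either RS library, although RS replicate 1 held the most intervals of the 4 lists. The intervals of *Sox9* lay along both sides of its start, as 5 separate ones in PS replicate 1 and 3 in PS replicate 2, from position -1196 to position 2526 relative to it. *Wt1* starts 19 bases from *AI314831* on the opposite strand, and most of its intervals were assigned to both genes.

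These PS intervals were weak. Among genes with intervals in both PS replicates, the median of the mean fold enrichment was 16.5, and 18.7% of those genes had a value as low as that of *Clu* or lower, 14.3% as that of *Sox9*, 11.1% as that of *Wt1* and 9.08% as that of *Gata4*. Genes with weak PS intervals lacked RS intervals more often than other genes. Of all genes with intervals in both PS replicates, 3.85% had none in either RS replicate, and of those with a mean fold enrichment under 10 it was 12.9%. Among the markers 4 of 7 had none in either RS replicate, all of them among the 6 under 10.

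*Amh* was the exception among the Sertoli markers. Its strongest interval reached a fold enrichment of 16.9 and 21.4 in the PS replicates and of 5.70 and 5.22 in the RS replicates. In PS it was a domain of 3106 and 4105 bases that ran over the gene and past its end, at chr10:80805764-80808869 and chr10:80805043-80809147 (mm10). *Amh* is 2401 bases long, starts 326 bases after the end of *Sf3a2*, a splicing factor gene, and ends 848 bases from the end of *Jsrp1*. The same gene had at most 9 reads in any RNA library, so in PS the strongest acetylation near a start among the markers stood at a gene with nearly the least RNA.

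**Figure D4:**
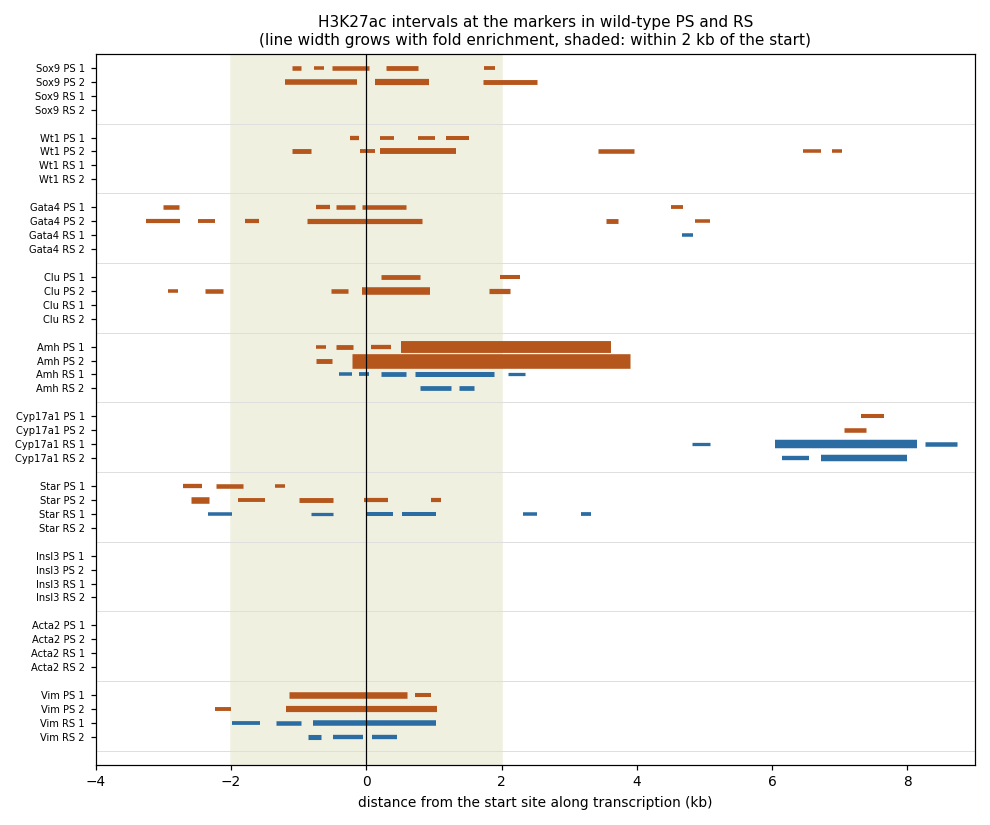
Intervals of H3K27ac at the 10 markers in each wild type PS (brown) and RS (blue) library, by distance from the start of the gene along its transcription in kb, with line width growing with fold enrichment and the 2 kb on each side of the start shaded. Only intervals assigned to the marker or within 2 kb of its start are drawn. *Sox9*, *Wt1*, *Gata4* and *Clu* have intervals near the start in PS alone, *Amh* and *Vim* in all 4 libraries, and for *Insl3* and *Acta2* none is drawn.

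*Insl3* and *Cyp17a1*, the most abundant of the markers in the RNA of PS, had no interval within 2 kb of their start in any library. The stretch before the start of *Insl3*, which lies in an intron of *Jak3*, is shown because so much RNA stood against no called acetylation there, and that of *Vim* because it carried intervals in all 4 libraries. Each is the 250 bases before the start site from RefSeq (GRCm38.p6, plus strand), with capitals marking a TATA box (TATAAA), a GC box (GGGCGG) or a CCAAT box (CCAAT) on either strand.
*Insl3*, chr8:71689002-71689251: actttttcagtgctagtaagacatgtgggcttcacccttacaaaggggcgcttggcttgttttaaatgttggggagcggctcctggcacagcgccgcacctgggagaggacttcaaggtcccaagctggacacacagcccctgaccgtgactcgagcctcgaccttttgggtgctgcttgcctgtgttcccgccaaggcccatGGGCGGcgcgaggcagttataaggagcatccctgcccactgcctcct
*Vim*, chr2:13574061-13574310: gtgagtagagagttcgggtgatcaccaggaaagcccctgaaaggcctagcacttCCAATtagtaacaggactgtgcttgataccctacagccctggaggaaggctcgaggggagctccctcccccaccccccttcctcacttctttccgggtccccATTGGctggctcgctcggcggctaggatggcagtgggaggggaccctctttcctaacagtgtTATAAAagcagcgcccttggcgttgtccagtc
The *Insl3* window held a GC box, a motif found in 32.7% of 32851 promoter windows of this length, and 11 CG dinucleotides, where the median window held 6. The *Vim* window held a TATA box (12.4% of windows), a pair of CCAAT boxes (at least one in 33.8% of windows) and 8 CG dinucleotides. These matches describe the letters and were not tested for binding.

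The fold enrichment of *Vim* was 8.23 and 7.67 in the PS replicates, and it was 6.51 and 5.81 in the RS replicates. Its intervals covered all of the printed stretch in both PS libraries and in RS replicate 1, and most of it in RS replicate 2. *Star* had 4.94 and 5.48 in PS and 4.07 in RS replicate 1, and no interval in RS replicate 2. In PS replicate 1 the intervals of *Star* lay only before the start, from position -2706 to position -1203. *Acta2* had no interval within 2 kb in any library. Those assigned to it, at position -15464 or farther upstream, were assigned to *Fas* as well.

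*Cyp17a1* (chr19:46667165-46673000, minus strand, mm10) had its assigned intervals past its 3′ end. The strongest one had a fold enrichment of 4.12 in PS replicate 1 and 4.93 in PS replicate 2, and of 11.4 in RS replicate 1 and 8.13 in RS replicate 2, so it was stronger in both RS libraries, whereas the RNA of *Cyp17a1* was lower in RS. In RS replicate 1 it spanned chr19:46664855-46666963, 6037 to 8145 bases from the start of *Cyp17a1*. The lists place it between genes. In the RefSeq annotation of GRCm38.p6 it covers the start of *Gm36602*, a long noncoding RNA on the minus strand at chr19:46660796-46666167. The 201 bases around its summit in RS replicate 1 are shown as part of the only region assigned to *Cyp17a1* in which all 4 libraries had an interval. The window itself overlaps the intervals of PS replicate 1 and RS replicate 2 and lies outside that of PS replicate 2. It is read from the plus strand with the summit base in capitals.
*Cyp17a1* downstream region, chr19:46665254-46665454: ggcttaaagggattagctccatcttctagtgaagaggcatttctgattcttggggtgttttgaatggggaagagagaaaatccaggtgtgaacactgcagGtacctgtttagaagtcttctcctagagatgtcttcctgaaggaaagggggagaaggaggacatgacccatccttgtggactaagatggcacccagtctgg
This window held none of the 3 motifs and no CG dinucleotide, where the median of 74910 windows around RS replicate 1 summits held 2.

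Genes with much RNA and no interval near the start were rare in these data. Of 5702 genes with a mean of at least 10 RPKM in dKO PS, 144 (2.53%) had no interval in either wild type PS library, and of 5437 such genes in RS, 157 (2.89%) had none in either RS library. Among the markers 4 reached 10 RPKM in PS, and *Insl3* and *Cyp17a1* had no PS interval. In RS, *Clu*, *Insl3* and *Vim* reached 10 RPKM, and *Clu* and *Insl3* had no RS interval. In the wider Leydig list, 5 of 9 genes had no interval near the start in any library, beside 36.9% of all genes. These were *Cyp11a1*, *Hsd3b1*, *Hsd3b6*, *Hsd17b3* and *Lhcgr*, and all 5 had log2 fold changes of -3.12 or below between RS and PS. The means of *Hsd17b3* and *Lhcgr* in PS, 8.43 and 1.8 RPKM, were under the 10 RPKM used above. *Fdx1*, *Fdxr* and *Scarb1*, the Leydig genes with intervals in all 4 libraries, had log2 fold changes of -0.67, -1.32 and 1.33. *Nr5a1*, a nuclear receptor that drives steroidogenic genes, had intervals in the PS libraries alone, at 5.35 and 5.48, and a log2 fold change of -1.89.

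**Figure D5:**
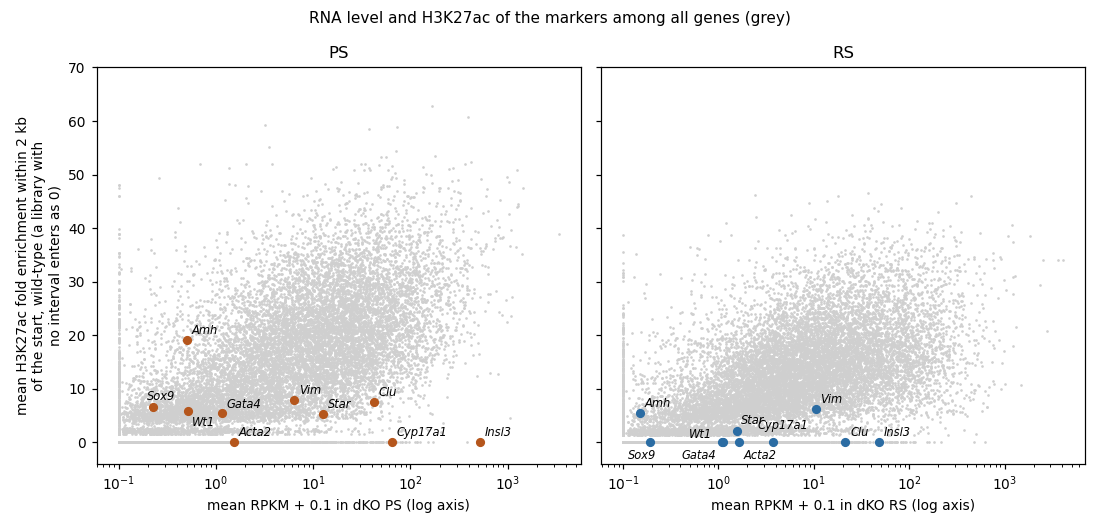
Mean fold enrichment of H3K27ac within 2 kb of the start in wild type cells, with 0 for a library without an interval, against mean RPKM plus 0.1 in dKO cells (log axis), for PS on the left and RS on the right, with all genes in grey and the 10 markers named. *Insl3* and *Cyp17a1* lie at 0 enrichment and far to the right in PS, and *Amh* lies high and to the left.

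Of 16 further Sertoli genes, 8 had intervals in both PS replicates and 3 in both RS replicates, beside 55.5% and 50.8% of all genes. The share in PS was smaller than the 5 of 5 among the Sertoli markers. In 7 of the 16 no library had one, beside 36.9% of all genes. Of all genes with intervals in both PS replicates at a mean fold enrichment under 10, 12.9% had none in either RS replicate. Of the 8 Sertoli genes, 5 had none in either RS library, all of them with a mean under 10 in PS. *Inhbb*, *Cldn11* and *Sox8* were among these 5, with fold enrichments of 4.94 and 6.58, 5.35 and 6.03, and 7.0 and 5.48 in the PS replicates. The others were *Aard*, at 4.53 and 5.48, and *Kitl*, at 3.7 and 10.4. In dKO RNA, *Aard* was called higher in RS (log2 fold change 2.02 ± 0.36 SE, edgeR adjusted p = 0.00124). *Inhbb*, *Cldn11* and *Kitl* were not called, and *Sox8* had too few reads for a test. The connective tissue and macrophage genes, higher in RS by RNA, had no interval near the start in any library for 5 of 6 and 5 of 7 genes, against the same 36.9%. All 7 spermatocyte and all 7 spermatid genes had intervals in all 4 libraries, as did 48.8% of all genes. No test compared the lists.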

How the data were processed

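Each group, taken from the labels, had 2 samples: H3K27ac ChIP-seq of both stages from wild type mice, and RNA-seq of both stages from dKO mice. The authors mapped ChIP reads by Bowtie (mm10) and ran MACS2 on every library; the deposited lists give the pileup signal, fold enrichment (a ratio) and -log10 p and q of each summit. The authors aligned RNA reads with STAR, kept unique alignments and deposited estimated counts per RefSeq isoform as whole numbers, and RPKM. RNA was amplified before library preparation, which can distort proportions.

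Isoforms were summed per gene. RS and PS were compared with edgeR 4.0.16 (quasi-likelihood test, TMM, at least 10 counts in 2 libraries, Benjamini-Hochberg adjustment over all 14647 genes tested). The SE is the log2 fold change over the square root of F. Summits of 1 interval were joined, and the strongest within 2 kb of any RefSeq start was taken. H3K27ac was described without a test. The study calls the RNA samples biological replicates. Whether a replicate number marks 1 animal across stages is not stated, and the samples were not treated as pairs.

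The members and lists were chosen with earlier results of these data known. The genes named were the 10 markers with their values, the 2 most abundant genes of each wider list and up to 3 called genes by size of change, and *Rnf8* and *Scml2*; the other genes named were chosen after their values were seen. The RefSeq promoter table matched 3 of the 10 markers (*Acta2*, *Insl3* and *Vim*). Alternatives covered normalization, DESeq2 1.42.0, filters, windows, thresholds, a replicate block and leaving out each library.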

Additional observations from a re-analysis of the deposited data

How the results depend on the processing

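*Insl3*, *Cyp17a1* and *Star* were called lower in RS under each of the 9 alternatives, with log2 fold changes of -3.73 to -2.97, -4.28 to -3.76 and -3.24 to -2.83. Markers called higher numbered 1 by DESeq2 (2 in the report) and 0 to 2 with 1 library left out. Markers called lower numbered 5 without a filter on low counts, with *Amh* and *Clu* added, and 3 to 4 with 1 library left out. The log2 fold change of *Gata4* was 0.01 with DESeq2 size factors, with DESeq2 and with a filter of 1 CPM, and -0.41 to 0.62 with 1 library left out. That of *Acta2* was -0.06 to 0.41 with 1 library left out. Markers with H3K27ac in both RS replicates numbered 1 at a -log10 q of at least 5. The log2 ratio of the summed level was -2.40 ± 0.57, where the error combines the SDs of both stages and is not a confidence interval. This ratio was -3.23 without *Clu* and *Vim*, -2.74 to -2.11 with 1 library left out, -1.72 without *Insl3* and -0.52 without the 3 Leydig markers. The causes of these moves were not tested, beyond the genes or samples each setting leaves out.

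With the replicate number as a block, 8723 genes were called instead of 8497, and 4 markers instead of 3 were called lower, *Clu* being added (log2 fold change -0.93, adjusted p = 0.00028). *Gata4* stood at 0.03 under the block, and no other call of a marker changed. The differences between replicates 1 and 2 in PS and in RS correlated across 14647 genes with r = 0.22, and genes are not independent replicates. With 2 libraries per stage, 1 library can decide the calls of *Wt1*, *Vim* and *Clu*. Read totals of the ChIP libraries are unknown.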
